A study of Mus musculus with 2 samples.

Results

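Imprinted growth genes are genes read from only the maternal or only the paternal copy, and many of them set how much a fetal tissue grows. The 8 genes described here are H19, Meg3, Igf2, Dlk1, Cdkn1c, Grb10, Plagl1 and Peg3, taken by symbol from the 32285 genes of the count matrices; each symbol matched 1 gene. H19, a long noncoding RNA made from the maternal copy, and Igf2, a growth factor made from the paternal copy, lie side by side and share enhancers and an imprinting control region bound by CTCF. The 8 genes are known as a network that is high in fetal tissue and is largely switched off after birth, while stem-like cells, regenerating muscle and many tumours can express some of it again.

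The cells came from tumours of MC38, a mouse colon adenocarcinoma line. There were 2 droplet single-cell 3′ RNA libraries: a control with the genotype label Mbtps1 WT and a knockdown with the label Mbtps1 KD. Mbtps1 encodes the site-1 protease, which cuts membrane-bound transcription factors in the Golgi, and the study asked how its loss alters the tumour and the cells around it. The series text calls the second group a knockout; it is called the knockdown here after its sample label, and the sources used here do not give how Mbtps1 was lowered, the strain, age and sex of the host mice, or how many tumours went into a library. With 1 library per group there is no replicate and no test: each ratio below is a property of these libraries, and its 95% interval covers counting error only, since molecules counted by their barcodes still share 1 tumour digest and 1 amplification. The set was chosen by name with values of these data in view, among them the ratio of H19 between knockdown and control tumour cells, so its differences are a description.

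After filtering, 11176 control cells and 17245 knockdown cells were kept, with a median of 8133.5 and 4320 unique molecular identifiers (UMIs, 1 per captured RNA molecule) per cell. The protocol states about 6000 cells loaded and 3000 targeted per channel, fewer than the barcodes kept. Of 39 clusters, 8 were tumour-like, with 4167 control and 6385 knockdown cells; 455 control and 2692 knockdown cells stayed without a name, 2785 cells of both libraries among them from a shallow cluster with some tumour genes. The libraries shared 48 cell barcodes; without those cells the H19 ratio given below was 0.295. The tumour-like name rests on low Xist and on genes of the cultured line: of 31 tumour markers, 14 reached at least 10 counts per 1000000 UMIs (CPM) in both libraries, among them Hmga2, Sox9 and Met, but the intestinal and epithelial markers Epcam, Krt8, Krt18, Krt19, Krt20 and Cdx2 were all under 1 CPM in both. Mbtps1 itself had 29.2 CPM in the tumour-like cells of the control (2908 UMIs) and 12.5 CPM in those of the knockdown (1222 UMIs), with a ratio of 0.429 (0.401–0.459).

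The H19 transcript is also the precursor of microRNA 675, whose hairpin of 84 bases lies 996 bases into the gene on the same strand. Both mature arms are shown because they are the part of H19 with a known base-pairing function; capitals mark the seed, bases 2 to 8, and the sequences and positions are RefSeq's (GRCm38.p6, minus strand, chr7:142577112-142577133 for the 5p arm and chr7:142577078-142577099 for the 3p arm).
mmu-miR-675-5p: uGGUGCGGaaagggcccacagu
mmu-miR-675-3p: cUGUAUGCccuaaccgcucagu
The seeds GGUGCGG and UGUAUGC differ, so the arms belong to different seed families. The libraries captured polyadenylated RNA, so the H19 values below count the long transcript and say nothing of either mature arm.

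Positions are GRCm38 (GENCODE). H19 is a lincRNA on the minus strand of chr7:142575529-142578143; Igf2, minus strand, chr7:142650766-142666816, lies 72.6 kb from it and overlaps the antisense gene Igf2os, which had 10 and 4 UMIs in tumour-like cells. Cdkn1c, minus strand, chr7:143458339-143461050, lies 880 kb from H19 in the neighbouring imprinted domain. Peg3, minus strand, chr7:6703892-6730431, is on the same chromosome but 136 Mb away. Dlk1 (chr12:109452823-109463336) and Meg3 (chr12:109541001-109571726), both on the plus strand, form a pair like that of Igf2 and H19, a paternal protein-coding gene and a maternal noncoding RNA 77.7 kb apart. Grb10 is on the minus strand of chr11:11930508-12038683 and Plagl1 on the plus strand of chr10:13060504-13131694.

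In tumour-like cells, 4 of the 7 genes with at least 20 UMIs were at least 1.5 times lower in the knockdown (H19, Igf2, Cdkn1c and Peg3) and none was at least 1.5 times higher. Over all 17247 genes with at least 20 UMIs in those cells, 5.35 percent were that much lower and 14.9 percent that much higher. The median log2 ratio was -1.02 over the 7 genes and 0.08 over all genes. Since values of this same contrast were in view when the set was chosen, nothing is read from the count.

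**Figure D1:**
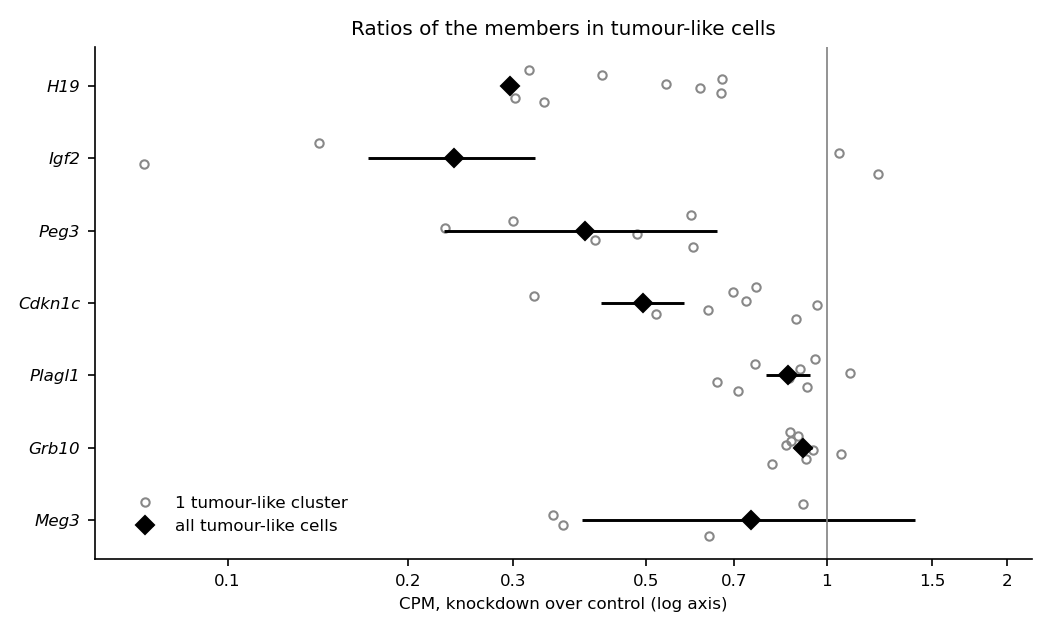
Ratio of CPM, knockdown over control, of 7 imprinted growth genes in tumour-like cells (log axis). Diamonds are sums over all tumour-like cells with 95% counting intervals, and open circles are single tumour-like clusters with UMIs in both libraries; H19 lies left of 1 in all 8 clusters, while the circles of Grb10 and Plagl1 gather near 1. Dlk1, with 2 UMIs in each library, is not drawn.

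H19, the noncoding RNA, had 91149 UMIs in tumour-like cells of the control and 26442 in those of the knockdown, which is 914 and 271 CPM. The ratio was 0.296 (0.292–0.301), the 84th lowest of the 17247 genes. Each of the 8 tumour-like clusters taken alone was lower in the knockdown, with ratios from 0.302 to 0.668 and no interval reaching 1. H19 and the other 7 genes were left out of the genes used for clustering, so no cluster was drawn by them directly.

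The clusters differed more from each other than the libraries did. In the control, H19 ran from 223 CPM in cluster 9, led by Asns, Trib3 and Ddit3 of the amino acid stress response, to 2039 CPM in cluster 10, a range of 9.15-fold; in the knockdown the same clusters had 137 and 1360 CPM. Clusters 7 and 10, both led by the extracellular matrix genes Mfap4, Aspn and Ogn, were highest in both libraries; cluster 7 had 1808 CPM in control and 1208 in knockdown. Clusters 11 (led by Cxcl1, Ccn1 and Egr1) and 15 (led by Csmd3, Unc5d and Tafa1) followed in the control with 923 and 913 CPM, levels that did not differ beyond counting error, and had 278 and 308 CPM in the knockdown. In cluster 15, 298 of the 2088 control UMIs were in 1 cell. Without the top cell of each cluster the control levels were 895 and 796 CPM. Lowest were the cycling clusters 3 (Top2a, Cenpf) with 540 and 172 CPM and 8 (Cdc20, Ube2c) with 334 and 180 CPM, cluster 4 (Galnt13, Hmga2) with 353 and 149 CPM, and cluster 9. The ratios did not follow the level: they were 0.667 in cluster 10 and 0.668 in cluster 7 at the top, 0.615 in cluster 9 at the bottom, and between 0.302 and 0.337 in clusters 11, 3 and 15.

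**Figure D2:**
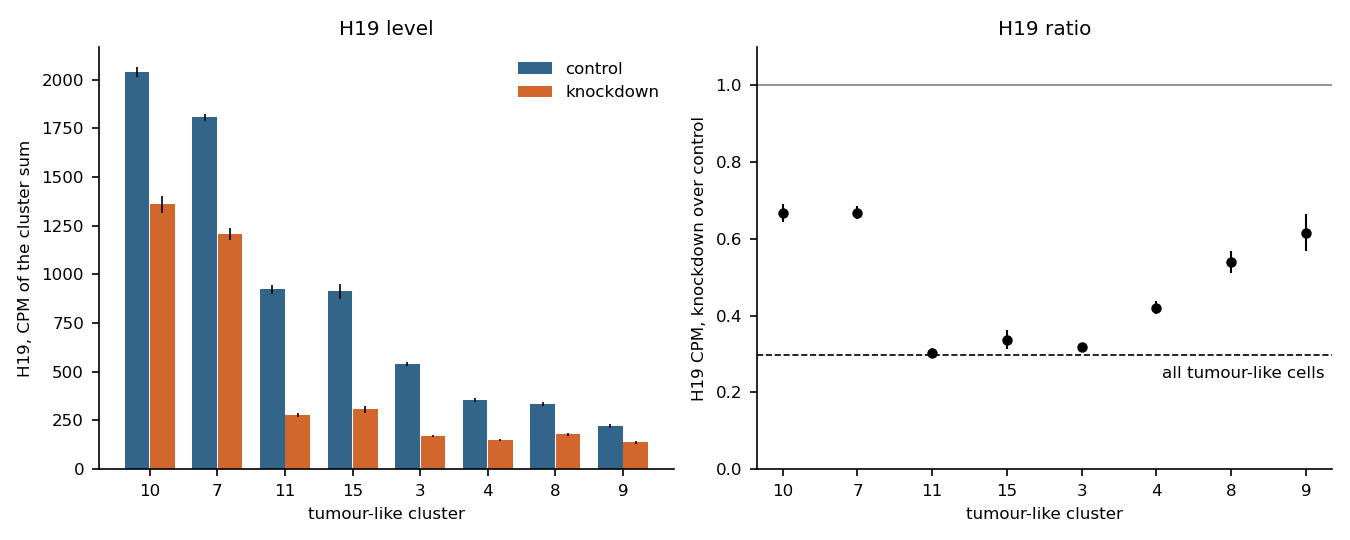
H19 in the 8 tumour-like clusters, ordered by control level. Left, CPM of the cluster sum in each library with 95% counting intervals; right, the ratio knockdown over control with its interval, the dashed line being all tumour-like cells at 0.296 and the grey line 1. Clusters 10 and 7 stand highest in both libraries, and all 8 ratios lie below 1.

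How the tumour-like cells were spread over the clusters bears on the summed ratio. Clusters 7 and 10 held 1642 of the 4167 control cells (39.4%) and 64.0% of the control H19 UMIs, against 686 of the 6385 knockdown cells (10.7%) and 38.3% of the knockdown UMIs. Genes that lead these clusters were themselves lower in the knockdown (Mfap4 at a ratio of 0.0718, Aspn at 0.342 and Ogn at 0.403), so the cluster sizes are given as shares within a library and are not compared. With each cluster given the same weight in both libraries the H19 ratio was 0.546, without clusters 7 and 10 it was 0.382, and in these clusters alone 0.666.

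Cluster 10 needs a caveat of its own. Among its 10 leading genes against all other cells were 3 fibroblast markers (Dpt, Dcn and Col3a1). No tumour marker was among the 10, nor among those of clusters 3, 8, 9, 11 and 15. Xist, made from the inactive X of female cells, was nonetheless at only 2.26 CPM in cluster 10. Without cluster 10 the H19 ratio was 0.310. The summed level of 13 fibroblast markers was 5662 and 5793 CPM in cluster 7 and 5457 and 5389 CPM in cluster 10, for control and knockdown, against 980–2648 and 1043–2539 CPM in the other 6 tumour-like clusters, and over all tumour-like cells it was 2838 and 1701 CPM. No fibroblast marker was at 0 over all tumour-like cells, and within clusters 7 and 10 only Fap was, in the knockdown of cluster 10. In the same cells 11 endothelial markers summed to 6.32 and 9.36 CPM, 11 pericyte markers to 24.1 and 30.6 CPM, and 10 skeletal muscle markers to 5.53 and 5.13 CPM with 3 at 0. Of the 13 fibroblast markers, 9 in control and 7 in knockdown reached 20 CPM in cluster 7, and 8 and 7 in cluster 10. The part that matrix-rich cells play in the summed H19 difference was not tested beyond the values by cluster.

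The amount of H19 varied widely from cell to cell. To set the depth gap aside, each tumour-like cell was thinned at random to 5000 UMIs, which left 3985 control and 5710 knockdown cells and dropped 182 and 675 shallower ones. The mean was then 5.60 H19 UMIs per cell in the control and 1.58 in the knockdown, the median 1 and 0, the 90th percentile 18 and 4, and the highest cell 113 and 93. At least 1 H19 UMI was seen in 54.9% (53.3–56.4, exact Clopper-Pearson) of control cells and 25.1% (24.0–26.3) of knockdown cells, where random sampling around a level shared by all cells would give 99.6% and 79.5%. Without thinning the shares were 75.0% and 37.9%. As a background, macrophage-like cells thinned to 500 UMIs showed H19 in 3.32% of control and 1.98% of knockdown cells, against 26.3% and 9.05% of tumour-like cells at the same depth; the median depths before thinning were 6026 and 3691 UMIs in macrophage-like and 22242 and 14351 in tumour-like cells.

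A minority of cells thus carried most of the H19, and a smaller one in the knockdown, where the mean was lower. The tenth of cells with the most H19 held 56.1% of the H19 UMIs in the control and 84.9% in the knockdown. In the control, 45.1% of cells had no H19 UMI, 25.2% had 1 to 4, 20.7% had 5 to 19 and 8.91% had 20 or more; in the knockdown the shares were 74.9%, 16.3%, 6.99% and 1.89%. The variance over the mean, which is near 1 where all cells share a level, was 19.6 in the control and 19.1 in the knockdown, the 6th highest of 8213 and the 4th highest of 8244 genes with a mean of at least 0.05 UMIs, whose medians were 1.08 and 1.07. That measure grows with a gene's level and depth as well as with its unevenness: within single clusters it ran from 7.31 to 21.2 in the control and from 8.98 to 30.6 in the knockdown, the highest in both being cluster 10.

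**Figure D3:**
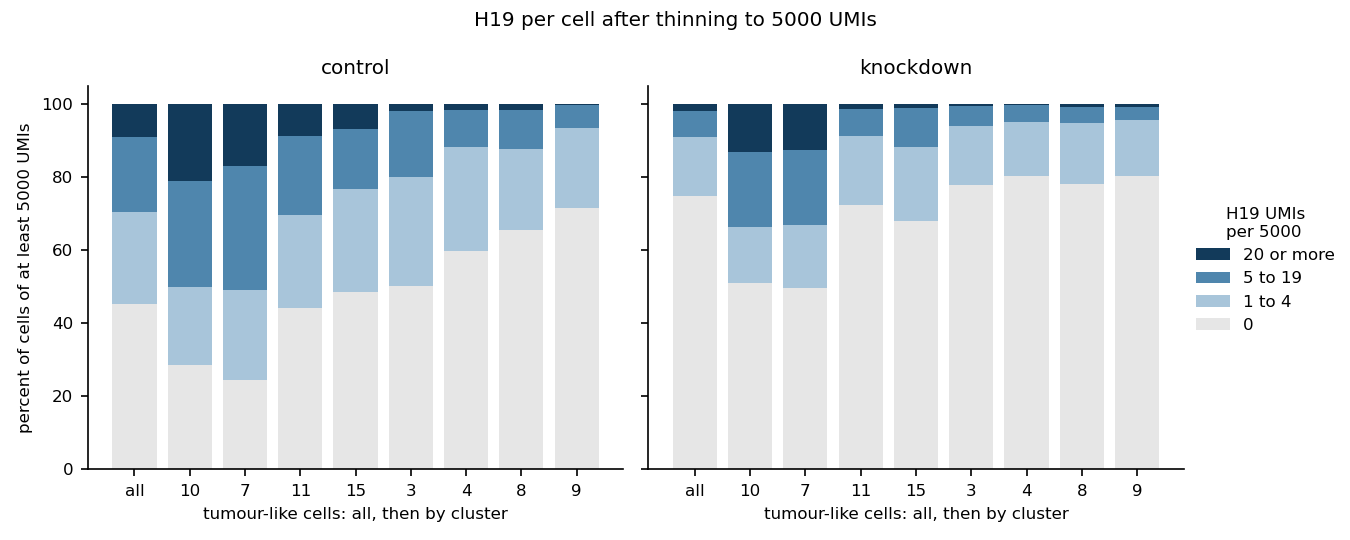
Share of tumour-like cells by H19 UMIs after thinning to 5000 UMIs, for all such cells and for each cluster, control on the left and knockdown on the right. Cells with 20 or more H19 UMIs made up 8.91% of control and 1.89% of knockdown cells, and clusters 10 and 7 hold the largest shares of them in both libraries.

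High and low cells were found together within clusters. Cluster membership accounted for 19.2% of the variance of log2(thinned H19 UMIs + 1) in the control and 10.3% in the knockdown, leaving 80.8% and 89.7% within clusters. The part within clusters includes the sampling of counts, which weighs more at the lower mean of the knockdown, so the shares of the libraries are not compared. In cluster 7, 24.4% of control and 49.6% of knockdown cells had no H19 UMI, while 17.0% and 12.6% had 20 or more. In cluster 10 the cells without H19 were 28.6% and 51.1%, and those with 20 or more were 136 of 646 and 30 of 231. In cluster 9, by contrast, 71.4% and 80.2% of cells had none and 0.270% and 0.688% had 20 or more. Cells with 3 or more UMIs of 10 proliferation genes had a mean of 2.77 H19 UMIs in the control, against 8.31 in the others. In the knockdown these means were 0.997 and 3.78. That cutoff took in 1947 of 3985 control cells but 4508 of 5710 knockdown cells. Its list holds Ccnd1, at 301 and 597 CPM in tumour-like cells, so the split is not a measure of cycling alone.

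Meg3, the noncoding RNA of the Dlk1 domain, was scarcely seen in tumour-like cells, with 26 UMIs in control and 19 in knockdown, or 0.261 and 0.195 CPM. The ratio of 0.747 (0.391–1.40) does not separate the libraries. Its place was the stroma: in pericyte/smooth muscle-like cells, the contractile cells around vessels, it stood at 993 CPM in control and 674 in knockdown (476 and 147 UMIs; ratio 0.679, 0.561–0.819), and in fibroblast-like cells at 513 and 501 CPM (862 and 541 UMIs; ratio 0.977, 0.876–1.09). In every blood cell class Meg3 had at most 10 UMIs in a library.

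Igf2, the fetal ligand of the insulin-like growth factor receptor, had 2.15 CPM in the control tumour-like cells (214 UMIs) and 0.512 CPM in those of the knockdown (50 UMIs), for a ratio of 0.239 (0.172–0.326). These UMIs came from very few cells. In the control they lay in 42 of 4167 cells, with 53 in 1 cell and 77.1% in 10 cells; in the knockdown they lay in 5 of 6385 cells, with 42 of the 50 in 1 cell of cluster 11. Leaving out the top cell of each library gave a ratio of 0.0508, so single cells decide the size of this ratio. Clusters 7, 8 and 10 had 63, 20 and 83 Igf2 UMIs in the control and 0 in the knockdown. Of these control UMIs 35, 7 and 53 were in the top cell of each cluster, which leaves 28, 13 and 30. They lay in only 8, 5 and 14 cells, so a counting interval, which takes UMIs as independent, sets no firm limit on these ratios. By cell, 0.837% (0.362–1.64), 1.13% (0.368–2.62) and 2.04% (1.12–3.40) of control cells had a UMI. The upper limits for the knockdown were 0.902%, 0.410% and 1.31%, so the intervals by cell overlap.

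Igf2-positive cells were mostly H19-positive. After thinning, 19 of the 21 control cells with an Igf2 UMI also had H19, against 2186 of all 3985 cells, and their mean H19 was 14.7 UMIs against 5.56 in cells without Igf2. Before thinning, 8 and 14 of the 42 control cells with Igf2 were in clusters 7 and 10. There only 24.4% and 28.6% of thinned control cells lacked H19, and an overlap beyond cluster membership was not tested. Only 2 knockdown cells had Igf2 after thinning, 1 of them with H19. Outside the tumour Igf2 had at most 7 UMIs in any named class and library, including 2 and 0 in skeletal muscle-like cells.

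Dlk1, a membrane-bound relative of the Notch ligands, was essentially not detected in tumour-like cells, with 2 UMIs in each library. After thinning to 5000 UMIs 0 cells of either library showed a UMI; the exact upper limits, 0.0925% of control and 0.0646% of knockdown cells, are limits on cells with a UMI at that depth and not on cells expressing the gene. It was concentrated in pericyte/smooth muscle-like cells, at 75.1 CPM in 54 control cells and 183 CPM in 44 knockdown cells (36 and 40 UMIs; ratio 2.44, 1.52–3.95). By cell, 27.8% (16.5–41.6) of control and 31.8% (18.6–47.6) of knockdown pericyte/smooth muscle-like cells had a Dlk1 UMI, so the intervals by cell overlap. In that class 4 genes had at least 20 UMIs: Dlk1 and H19 were at least 1.5 times higher in the knockdown and Grb10 at least 1.5 times lower, where 12.1 percent of 5377 genes were that much higher and 16 percent that much lower.

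Cdkn1c, an inhibitor of cyclin-dependent kinases that stops the cell cycle, had 485 UMIs in tumour-like cells of the control and 234 in those of the knockdown. The levels were 4.86 and 2.40 CPM, a ratio of 0.493 (0.420–0.577). In the control it was highest in clusters 10 and 7, as H19 was, with 8.78 and 8.64 CPM, and lowest in cluster 9 with 2.05 CPM. In the knockdown cluster 10 was again highest with 5.57 CPM, but cluster 11 (3.02 CPM) stood above cluster 7 (2.80 CPM). Only clusters 7 (ratio 0.324) and 11 (0.519) had intervals below 1 by themselves; the other 6 held 1. Without clusters 7 and 10 the ratio over the remaining cells was 0.723. Cells with a Cdkn1c UMI after thinning had a mean of 9.47 H19 UMIs in the control against 5.50 in those without, and 3.92 against 1.56 in the knockdown.

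In fibroblast-like cells Cdkn1c was at 85.2 CPM in 184 control cells and 48.2 CPM in 189 knockdown cells (143 and 52 UMIs; ratio 0.566, 0.404–0.782). Of the 143 control UMIs 28 were in 1 cell, and the ratio without the top cell of each library was 0.637. The difference lay in cluster 27 with 82 and 5 UMIs (102 and 9.21 CPM), while cluster 28 had 97.0 and 113 CPM. Of the 6 genes with at least 20 UMIs in this class, Cdkn1c was at least 1.5 times lower and Plagl1 at least 1.5 times higher, where 12 percent of 10028 genes were lower and 7.41 percent higher by that much.

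Grb10, an adaptor protein that dampens signalling from the insulin and IGF receptors, had the ratio nearest to 1 among the 7 genes measured in tumour-like cells. It had 6893 and 6148 UMIs, 69.1 CPM in the control and 63.0 CPM in the knockdown, for a ratio of 0.911 (0.881–0.943). Its ratios by cluster ran from 0.811 to 1.06, with 5 of 8 intervals below 1. Its order of clusters was unlike that of H19: highest in cluster 15 (139 and 112 CPM), lowest in cluster 8 (35.5 and 30.4 CPM), and 38.3 and 40.5 CPM in cluster 10. The variance over the mean was 1.16 and 1.10, close to the medians of all genes, and cells with a UMI after thinning were 27.9% and 25.9%.

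Grb10 was also expressed by stroma. Fibroblast-like cells had 166 and 157 CPM (ratio 0.943, 0.774–1.15) and endothelial-like cells 145 and 155 CPM (1.06, 0.790–1.43), so in both classes as a whole the libraries could not be told apart at this depth. Within the fibroblast-like cells, however, cluster 27 was lower in the knockdown, 150 and 95.8 CPM on 120 and 52 UMIs (0.639, 0.452–0.892), while cluster 28 had 198 and 242 CPM (1.22, 0.902–1.65). In pericyte/smooth muscle-like cells it was 83.4 and 27.5 CPM on only 40 and 6 UMIs (0.330, 0.114–0.783).

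Plagl1, a zinc finger transcription factor that can arrest the cell cycle and is known to regulate other imprinted genes, had 1225 and 1032 UMIs in tumour-like cells. The levels were 12.3 and 10.6 CPM, a ratio of 0.861 (0.792–0.936), and of the 8 clusters only cluster 4 had an interval below 1. It was highest in cluster 15, with 25.3 CPM in control and 18.0 in knockdown. In fibroblast-like cells it was higher in the knockdown, 16.7 against 39.9 CPM on 28 and 43 UMIs (ratio 2.39, 1.45–3.99), with 10 and 30 of those UMIs in cluster 28.

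Peg3, a zinc finger transcription factor made from the paternal copy, had 57 and 22 UMIs in tumour-like cells, or 0.571 and 0.225 CPM (ratio 0.394, 0.230–0.655). All 6 clusters with a ratio had intervals that held 1, and 16 control and 8 knockdown cells had a UMI after thinning. Endothelial-like cells were its main site, with 114 and 81.2 CPM (91 and 42 UMIs; 0.712, 0.482–1.04). Most of it was in cluster 25, which by itself was lower in the knockdown, with 150 and 80.2 CPM (79 and 33 UMIs; 0.534, 0.344–0.810), while cluster 31 had 44.0 and 85.1 CPM on 12 and 9 UMIs (1.93, 0.720–5.00). Fibroblast-like cells had 27.4 and 22.2 CPM (0.812, 0.474–1.36).

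**Figure D4:**
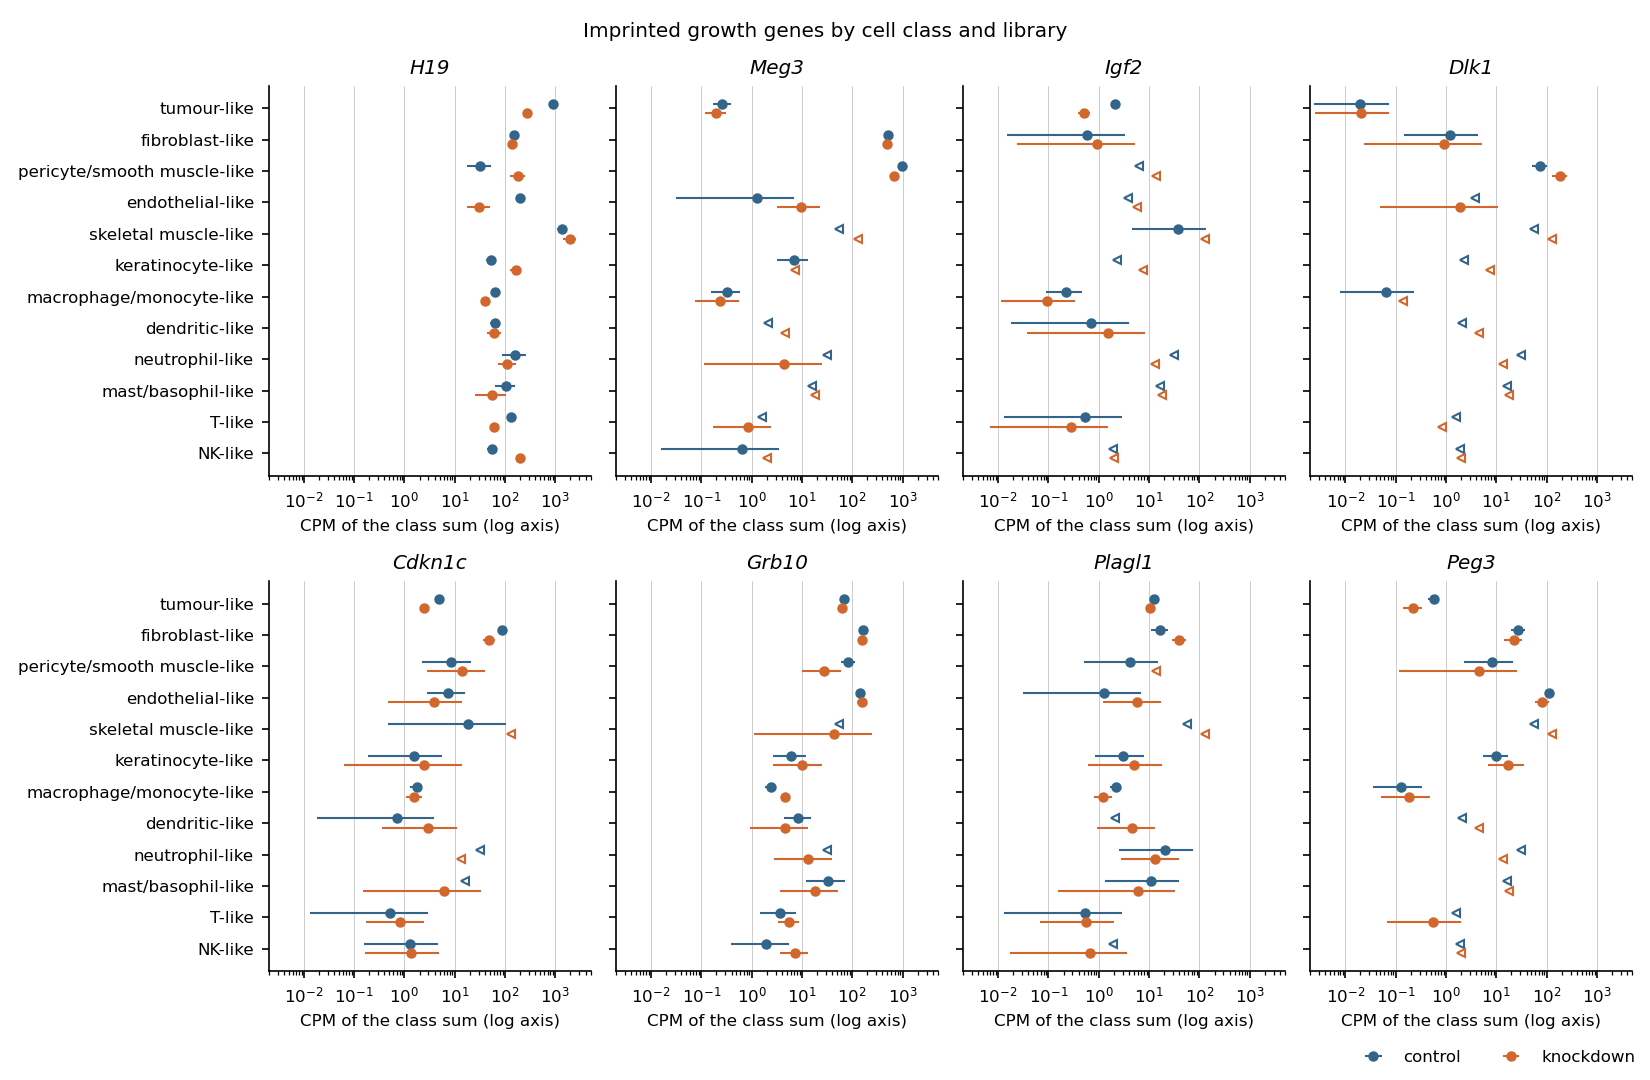
CPM of each gene in 12 cell classes (log axis), control and knockdown, with 95% counting intervals. Open triangles pointing left stand at the CPM of 3 UMIs where 0 were counted, which is below the upper end of the 95% interval. H19 is high in tumour-like and skeletal muscle-like cells, Meg3 in fibroblast-like and pericyte/smooth muscle-like cells, Dlk1 in the latter, and Peg3 in endothelial-like cells.

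H19 was also counted outside the tumour-like cells. Skeletal muscle-like cells, of which there were only 20 in control and 15 in knockdown, had the highest level of any class, 1355 and 1961 CPM (73 and 45 UMIs; ratio 1.45, 0.976–2.13). Tumour-like cells came next and held 96.9% of the H19 UMIs of named cells in the control and 93.8% in the knockdown. The skeletal muscle-like cluster had Xist at 26.0 CPM, just over the cutoff of 20 CPM, where the next lowest named host cluster had 216 CPM. Its cells were shallow, with medians of 2017.5 and 1078 UMIs. Tumour genes put their free RNA at 5.44% and 55.5% of UMIs, which would give 40.0 and 119 CPM of H19. Both their host name and their level are thus uncertain. Fibroblast-like cells had 148 and 137 CPM (0.929, 0.752–1.14). Free RNA, estimated as described below from tumour genes, would give 116 of the 148 CPM in the control and 33.4 of the 137 CPM in the knockdown, so this ratio near 1 sets side by side levels with unequal estimated background. Cluster 27 was lower in the knockdown (0.526, and 0.404 without the top cell of each library). Cluster 28 was higher (4.46), but 50 of its 68 knockdown UMIs were in 1 cell, and without the top cells 15 and 18 UMIs remained, a ratio of 1.48.

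In the other classes much of the H19 sat in single cells. In endothelial-like cells, with 199 and 30.9 CPM, 121 of the 159 control UMIs were in 1 cell; the ratio was 0.155 with those cells and 0.518 without the top cell of each library. This made H19 the only 1 of the 3 genes with at least 20 UMIs there to pass the fold, lower, as 11.4 percent of 7625 genes were; 13.2 percent were higher. In T-like cells the ratio moved from 0.442 to 0.691 without the top cells. In keratinocyte-like cells, 57 of the 66 knockdown UMIs were in 1 cell, and the ratio turned from 3.07 to 0.472 without the top cells.

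RNA free in the suspension carried H19 as well. Barcodes with at most 100 UMIs, taken as empty droplets, had 735 CPM in the control and 215 CPM in the knockdown (1647 and 406 UMIs; ratio 0.293, 0.262–0.327). Per UMI of 5 tumour genes (Rhox5, Tex101, Shisal2b, Hmga2 and Phgdh) these droplets held 0.539 and 0.119 H19 UMIs; Hmga2 itself was 1.54 times higher in knockdown tumour-like cells. The same quotient was 18.3 and 1.96 in skeletal muscle-like cells. In the other 10 host classes it ran in the control from 0.0735 (pericyte/smooth muscle-like) to 2.12 (endothelial-like) and in the knockdown from 0.0947 (mast/basophil-like) to 0.622 (NK-like), so no single quotient held across classes. In control pericyte/smooth muscle-like cells the tumour genes would predict 229 CPM of H19 where 31.3 CPM was seen, so the estimate is rough. Macrophage-like cells, with quotients of 0.800 and 0.198, had 62.2 and 39.9 CPM of H19 (1930 and 844 UMIs; 0.641, 0.590–0.695), where free RNA estimated from those tumour genes would give 41.9 and 24.0 CPM. Of the 4 genes with at least 20 UMIs in that class, H19 and Plagl1 (0.568, 0.347–0.906) were at least 1.5 times lower and Grb10 at least 1.5 times higher, where 3.26 percent of 14308 genes were lower and 10.2 percent higher. None of these ratios was corrected for free RNA. Estimated from macrophage genes, free RNA made up 2.27% and 3.55% of the UMIs of tumour-like cells.

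Correlations of H19 with the other genes across tumour-like cells were weak in these sparse counts: after thinning, Pearson's r on log2 values was 0.0744 with Igf2, 0.0721 with Cdkn1c and 0.00443 with Grb10 over 3985 control cells, all from 1 library. Across the 8 tumour-like clusters in each library, 16 points of log2(CPM + 1) that share their libraries, 9684 genes were ranked by their Pearson correlation with H19. The 5 highest were Lsp1 (0.983), Fn1 (0.978), Serinc3 (0.978), Hic1 (0.969) and Bmp1 (0.969). Lsp1, which encodes an actin-binding protein and lies in the same chromosome 7 region, stood at 66.7 and 25.4 CPM in tumour-like cells, a ratio of 0.380. Fn1, the matrix protein fibronectin, had 1444 and 681 CPM (0.471), and Bmp1, the protease that trims procollagens, 50.9 and 27.3 CPM (0.537). The transcriptional repressor Hic1 stood at 0.470 and Serinc3, a membrane protein, at 0.712. Among the imprinted genes, Plagl1 correlated with H19 at 0.403 and Grb10 at 0.108; the cycling gene Top2a was at -0.504.

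**Figure D5:**
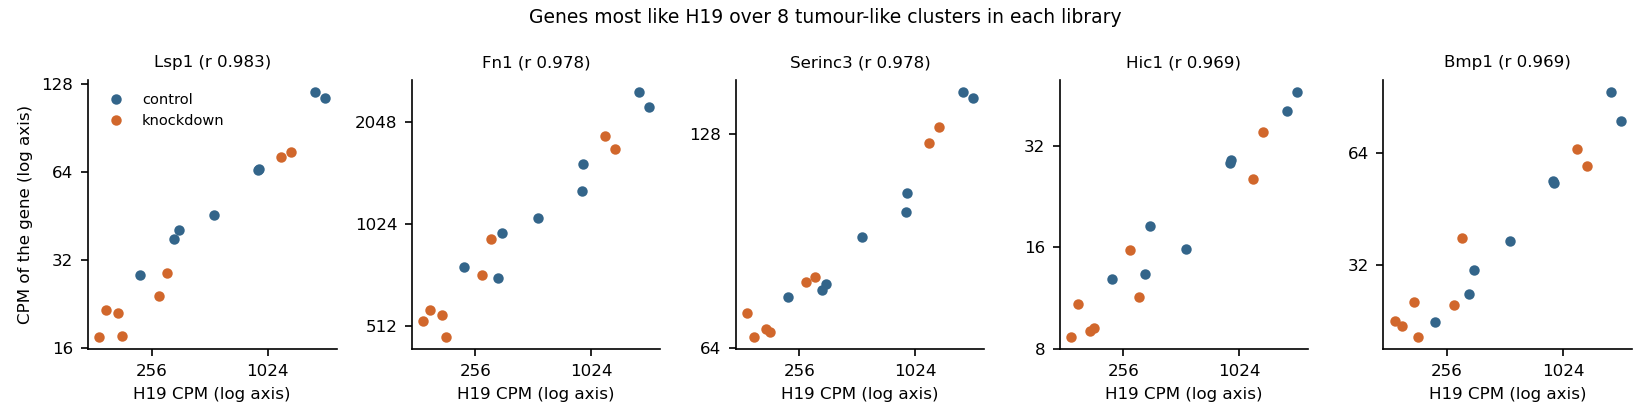
CPM of the 5 genes most correlated with H19 (vertical, log axis) against H19 CPM (horizontal, log axis) over 8 tumour-like clusters in each library. Control and knockdown points lie along 1 band in each panel, with r from 0.969 to 0.983 on log2(CPM + 1).

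The remaining imprinted genes are given for comparison, with the all-gene shares of 5.35 percent lower and 14.9 percent higher as background. Of 63 on the list, 38 had at least 20 UMIs in tumour-like cells; 2 were at least 1.5 times lower (Gab1 and Tfpi2) and 5 at least 1.5 times higher (Mest, Snrpn, Kcnq1, Cobl and Ano1; the intervals of Mest and Snrpn held 1), with a median log2 ratio of -0.06 against 0.08 for all genes. Both counts are near that background. Gnas, which encodes a G protein subunit, had 1089 and 952 CPM (ratio 0.875) and Dcn, the matrix proteoglycan decorin, 427 and 295 CPM (0.690). Kcnq1, a potassium channel gene of the Cdkn1c domain, had 26 and 102 UMIs (4.01, 2.59–6.43), while Tfpi2, a protease inhibitor, had 45 and 11 UMIs (0.250, 0.117–0.491).

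Of 22 genes around H19 and Igf2, 17 had at least 20 UMIs: Lsp1, Tnni2 and Tnnt3 were at least 1.5 times lower and Kcnq1 and Trpm5 at least 1.5 times higher, Trpm5 with an interval that held 1, with a median log2 ratio of -0.12. Over all genes, 5.35 percent were that much lower and 14.9 percent that much higher. Tnni2, a fast muscle troponin gene, went from 12.1 CPM in control to 4.03 in knockdown (0.334, 0.297–0.374). Cd81, a tetraspanin gene of the same region, was nearly level at 339 and 356 CPM (1.05), and Ctsd, the lysosomal protease cathepsin D, had 197 and 156 CPM (0.791).

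Known partners of these genes follow, with the all-gene shares of 5.35 percent lower and 14.9 percent higher as background. Of 18 IGF receptors, binding proteins and signalling genes, 15 had at least 20 UMIs, with 2 at least 1.5 times lower (Igfbp5 and Igfbp7), 2 higher (Igfbp4 and Pappa, the latter on 9 and 19 UMIs with an interval that held 1) and a median log2 ratio of 0.10; the count of higher genes is near that background. Igfbp4, which holds IGF ligands, had 14.4 and 25.1 CPM (1.73, 1.62–1.85), and its relative Igfbp5 1.42 and 0.266 CPM (0.187, 0.118–0.286). Htra1 and Igfbp6, the highest of that list, had ratios of 1.29 and 1.15. The signalling receptor gene Igf1r had 104 and 129 CPM (1.25) and the clearance receptor gene Igf2r 32.5 and 30.7 CPM (0.944).

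Among 11 RNA-binding proteins and let-7 targets, known partners and targets of H19 and Igf2, 9 had at least 20 UMIs and only Hmga2 passed the fold, with 472 and 727 CPM (1.54, 1.52–1.56); Elavl1 (1.02) and Igf2bp2 (0.948) stayed near 1. Of 11 Notch pathway genes, 9 had at least 20 UMIs and 3 were at least 1.5 times higher (Notch3, Notch4 and Dlk2), Dlk2 at 3.24 and 5.78 CPM (1.78); Notch2 stood at 0.960 and the target gene Hes1 at 0.715. Over all genes, 5.35 percent were at least 1.5 times lower and 14.9 percent at least 1.5 times higher. None of 6 other cell-cycle inhibitors passed the fold, with Cdkn2a at 0.989, Cdkn2b at 0.747 and Cdkn1a at 1.25. Of 10 proliferation genes, Top2a (1.58) and Ccnd1, the gene of cyclin D1 (301 and 597 CPM; 1.98), were at least 1.5 times higher, Cdc20 stood at 1.03, and the median log2 ratio was 0.40.

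Factors that keep imprints were measured by 14 of 16 genes. The maintenance methyltransferase Dnmt1 (50.8 and 77.9 CPM; 1.54) and its partner Uhrf1 (33.2 and 55.6 CPM; 1.67) were at least 1.5 times higher in the knockdown, and Tet2, which oxidises methylated cytosine, at least 1.5 times lower (23.9 and 14.9 CPM; 0.624, 0.585–0.667). Both counts are near the all-gene shares of 5.35 percent lower and 14.9 percent higher. Smchd1 and Trim28, which hold imprinted genes silent, had ratios of 1.10 and 1.21. DNA methylation and the parental origin of the transcripts were not measured in these libraries.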

How the data were processed

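The authors made the libraries with a 10x 3′ v3.1 kit per the labels' protocols, and deposited raw UMI counts per gene and barcode from Cell Ranger (version 4 per the file headers) that still hold the empty droplets; for the genome build, not given in the sources used here, GRCm38 was taken. From 1688458 and 1769772 barcodes with 177399315 and 174190399 UMIs, cells had at least 500 UMIs, 250 genes, at most 20% mitochondrial UMIs, and differed from barcodes of at most 100 UMIs (false discovery rate 0.01) or had 3000 UMIs. Simulated pairs marked 392 (3.39%) and 648 (3.62%) doublets, which were removed. Cells were clustered (leidenalg 0.10.2, scikit-learn 1.9.0, 2000 variable genes without the imprinted genes, 30 components, 15 neighbours, resolution 1) and named from marker lists; a cluster with Xist under 20 CPM and 3 or more tumour markers was called tumour-like, so classes are rebuilt and not the authors'.

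Counts were summed per class and library and scaled to CPM. Ratio intervals are exact conditional binomial. Their check on simulated data drew UMIs as independent, as the intervals assume, so it does not cover UMIs that cluster in single cells. Many genes outside the 8 were named by rule. In each list, among genes of at least 50 UMIs, these were the 2 highest and the highest and lowest ratio. The 5 genes most correlated with H19 were named as well. Named outside that rule were, among others, genes past the fold, marker and cluster-leading genes, Mbtps1, Igf2os, Igf1r and Igf2r. Of the features, 99.6% were found in GENCODE vM21. The 8 genes, lists and markers were chosen with earlier results of these data known. Alternatives covered clustering, filters, scaling, depth and cluster weights.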

Additional observations from a re-analysis of the deposited data

Results flagged for a closer look

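A few differences between the libraries ran opposite to the tumour-like cells, where H19, Grb10 and Plagl1 all had ratios under 1. H19 had ratios of 5.72 in pericyte/smooth muscle-like cells, 3.07 in keratinocyte-like cells and 3.63 in NK-like cells; Grb10 had ratios of 1.94 in macrophage-like cells and 3.85 (1.02–21.5) in NK-like cells, the latter on 3 and 11 UMIs; and Plagl1 had 2.39 in fibroblast-like cells. With 1 library per group the difference between classes was not tested. In pericyte/smooth muscle-like cells 29 of the 39 knockdown H19 UMIs were in 1 cell, and without the top cell of each library 9 and 10 UMIs remained, a ratio of 2.43. In NK-like cells 68 and 122 UMIs remained, a ratio of 1.89. In keratinocyte-like cells the direction turned, to 0.472. Grb10 in macrophage-like cells was 1.95 and Plagl1 in fibroblast-like cells 2.51 without the top cells. The Grb10 levels in macrophage-like cells were low, 2.39 CPM in control and 4.63 CPM in knockdown. Free RNA was estimated at 5.70% and 11.2% of UMIs there, and empty droplets held 45.1 and 33.4 CPM of Grb10. The part of free RNA in this Grb10 ratio was not tested. H19 was also present in barcodes of at most 100 UMIs, outside the cells compared, with 1647 UMIs in the control and 406 in the knockdown.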

How the results depend on the processing

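All 22 alternatives kept H19 at least 1.5 times lower in knockdown tumour-like cells. The ratio of 0.296 became 0.289 at clustering resolution 0.5, 0.310 without cluster 10, 0.285 as the mean of per-cell CPM, 0.282 after thinning to 5000 UMIs, 0.283 when scaled by the median of gene ratios (a shift of 0.07 on the log2 scale), 0.301 with the shallow cluster 2, 0.258 in cells of 5000 to 10000 UMIs and 0.184 in cells of 10000 to 20000 UMIs. It moved most with the clusters: 0.546 with the same weights in both libraries, 0.532 with equal weights, 0.382 without clusters 7 and 10, and 0.666 in those alone. The last 3, the inclusion of cluster 2 and leaving out shared barcodes or, outside the tumour, top cells were chosen after seeing the data. The count of 4 genes ranged from 2, in cells of 5000 to 10000 UMIs, to 5. Grb10 stayed between 0.789 and 0.920, Plagl1 between 0.750 and 0.950, Peg3 between 0.292 and 0.496, and Cdkn1c between 0.307 and 0.723; Igf2 ranged from 0 to 0.566 and Meg3 from 0.116 to 2.24. Beyond the tumour, the direction of a ratio whose interval left out 1 turned only for H19 in keratinocyte-like cells, 0.472 without the top cells, among the 4 alternatives run there. The share of cells with H19 depends on depth: at 2000 UMIs it was 44.1% and 17.9%, and the variance over the mean 8.45 and 7.66; over the 8 clusters taken singly that variance ran from 7.31 to 21.2 and from 8.98 to 30.6. No paired analysis was possible because each group holds 1 library.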
